A study of Mus musculus with 4 samples.

Results

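The 8 genes described here encode proteins of the epithelial tight junction: the claudins Cldn1, Cldn3, Cldn4 and Cldn7, occludin (Ocln), the scaffolds Tjp1 and Cgn, and the junctional adhesion molecule F11r. They were chosen by name, and all 8 were found among the 31053 genes of the count tables. The RNA of single cells was counted from the 3′ end in droplets, in mammary epithelium from the fourth glands of 4 FVB mice aged 9 weeks, with 1 library per mouse. All 4 mice carried the genotype Tfap2c fl/fl with Krt5-CreERT2, a Cre made from the Krt5 promoter, so recombination is aimed at basal cells and not at every epithelial cell. Injections of corn oil (2 mice) or 4OHT, the ligand that activates this Cre (2 mice), began at 4 weeks, and the study's question was the role of Tfap2c in multipotent stem cells of the gland. The labels give the length of the injections in more than one way, and no result here rests on it.

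Tight junctions seal the space between neighbouring epithelial cells near their apical surface. Claudins form the paracellular barrier strands, occludin sits in the same strands, F11r is an adhesion molecule of the immunoglobulin superfamily that acts early in junction and polarity assembly, and Tjp1 (ZO-1) and cingulin tie the membrane proteins to the actin cytoskeleton. In the mammary gland the luminal cells line the duct lumen and carry apical tight junctions, whereas basal myoepithelial cells lie outside them on the basement membrane. Luminal cells comprise progenitors, which include the precursors of milk-secreting cells, and hormone-sensing cells, which express receptors for estrogen and progesterone.

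Cells with at least 1000 UMIs (unique molecular identifiers, each standing for 1 captured RNA molecule) numbered 3509 and 4233 in the corn oil-labelled libraries and 4670 and 5420 in the 4OHT-labelled ones. The total UMI counts of the libraries ran from 17351950 to 22017878. Cells were called basal or luminal where 1 lineage had at least 5 keratin or actin UMIs and more than 3 times those of the other, with Krt5, Krt14, Krt17 and Acta2 on the basal side and Krt8, Krt18 and Krt19 on the luminal side. Luminal cells were split by 6 further genes into hormone-sensing cells and progenitors. None of the 8 junction genes was used. This gave 7028 basal, 5629 luminal progenitor and 1168 hormone-sensing cells over the 4 libraries. Markers outside the rule followed the class names: 10 basal markers summed to between 6808 and 8767 CPM in basal cells and to at most 356 CPM in progenitors. The progenitor markers summed to between 8338 and 11810 CPM in progenitors and to between 1311 and 2900 CPM in basal cells, where Lcn2 and Plet1 made up 84.9% to 90.1% of the sum. Hormone-sensing markers summed to between 1216 and 2265 CPM in their class, where Tnfsf11 was at 0 in every library. CPM is a gene's UMIs per 1000000 UMIs of that class in that library. Between 18 and 36 cell barcodes were shared by any pair of libraries.

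Tfap2c, the targeted gene, was not shown to be lower in the 4OHT-labelled libraries. In basal cells it stood at 389 and 285 CPM with corn oil and at 285 and 325 CPM with 4OHT. The log2 fold change was -0.08 (standard error 0.25, adjusted p 0.999 by edgeR's quasi-likelihood test with Benjamini-Hochberg adjustment). A 3′ count cannot tell whether an internal exon was lost. Every treatment direction given here rests on the labels, for which reason libraries are named by their label.

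The windows before the start sites of 5 members are shown because these genes bracket the patterns described below: Cldn3 and Cldn4 are neighbours with high luminal levels, Cldn1 was high in 1 of the 3 classes, Cgn had the largest luminal difference, and F11r was not higher in luminal cells. Each window is the 250 bases before a RefSeq start (GRCm38.p6), read on the gene's strand. Capitals mark matches on either strand to 5 motifs: AP-2 (GCCNNNGGC), GRHL (AACNNGTT), the SNAI E-box (CAGGTG), AP-1 (TGANTCA) and the GC box (GGGCGG).
Cldn3, chr5:134985964-134986213, plus strand: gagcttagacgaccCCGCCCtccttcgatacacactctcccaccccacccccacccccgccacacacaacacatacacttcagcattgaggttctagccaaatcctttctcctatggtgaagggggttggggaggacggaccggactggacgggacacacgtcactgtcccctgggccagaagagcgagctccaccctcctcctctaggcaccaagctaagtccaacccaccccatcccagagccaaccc
Cldn4, chr5:134946935-134947184, minus strand: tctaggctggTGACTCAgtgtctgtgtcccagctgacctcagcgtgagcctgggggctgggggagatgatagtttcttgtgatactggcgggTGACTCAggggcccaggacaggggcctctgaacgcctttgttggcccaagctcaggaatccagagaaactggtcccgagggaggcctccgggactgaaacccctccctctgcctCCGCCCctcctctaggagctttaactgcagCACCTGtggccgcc
Cldn1, chr16:26371840-26372089, minus strand: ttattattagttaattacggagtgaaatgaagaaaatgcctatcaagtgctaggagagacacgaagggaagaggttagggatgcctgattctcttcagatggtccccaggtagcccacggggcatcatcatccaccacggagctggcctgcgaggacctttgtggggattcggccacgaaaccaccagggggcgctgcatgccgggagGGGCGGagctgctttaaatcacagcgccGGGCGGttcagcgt
Cgn, chr3:94786483-94786732, minus strand: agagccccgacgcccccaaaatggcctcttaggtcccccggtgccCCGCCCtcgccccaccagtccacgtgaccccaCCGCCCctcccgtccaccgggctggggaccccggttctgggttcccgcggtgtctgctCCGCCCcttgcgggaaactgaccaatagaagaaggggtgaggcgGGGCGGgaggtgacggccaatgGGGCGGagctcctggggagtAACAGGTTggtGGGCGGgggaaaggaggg
F11r, chr1:171437311-171437560, plus strand: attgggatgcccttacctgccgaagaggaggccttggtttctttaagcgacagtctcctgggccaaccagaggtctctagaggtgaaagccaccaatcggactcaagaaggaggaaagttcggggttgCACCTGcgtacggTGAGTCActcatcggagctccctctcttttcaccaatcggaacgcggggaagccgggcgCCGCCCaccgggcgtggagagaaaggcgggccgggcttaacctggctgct

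The Cldn4 window held 2 AP-1 matches, beginning 240 and 158 bases before the start, and an E-box match at 14 bases. An AP-1 match, at 109 bases, and an E-box match, at 122 bases, also lay in the F11r window. Only Cgn had a GRHL match, at 29 bases, and it also had 6 GC box matches. The Cldn3 and Cldn1 windows held GC box matches alone, 1 and 2. RefSeq lists 2 starts each for Cldn7 and Ocln, and 1 of the windows of each held 2 E-box matches. An AP-2 match was found in 1 member only, Ocln, at 48 bases before the start, where it overlaps a GC box. Among all 32851 RefSeq windows of this length, 13.7% held the AP-2 letters, 3.64% GRHL, 17.2% the E-box, 6.75% AP-1 and 32.7% the GC box. A match is a description of letters and not a bound site.

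In the genome (GRCm38, GENCODE M21) Cldn4 (ENSMUSG00000047501, chromosome 5 from 134945119 to 134946934, minus strand) and Cldn3 (ENSMUSG00000070473, chromosome 5 from 134986214 to 134987472, plus strand) point away from each other. They are 39279 bases apart with no annotated gene between them. Cldn3 overlaps Wbscr25 on the other strand, which had 21, 184 and 23 UMIs in the basal, progenitor and hormone-sensing classes beside 634, 23666 and 3490 for Cldn3. The other members are on chromosomes 16 (Cldn1), 11 (Cldn7), 13 (Ocln), 7 (Tjp1), 3 (Cgn) and 1 (F11r).

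Luminal progenitors carried far more RNA of the 4 claudins, occludin and cingulin than basal cells did. Of the 8 members, 7 were higher in progenitors and 1, F11r, was lower, where 56.1% of the 11122 genes tested passed the same threshold (26.6% higher and 29.5% lower). Of these, 6 were higher by at least 1 log2 unit, against 12.7% of all genes. The median log2 fold change of the members was 4.59, beside -0.04 for all genes tested. All class contrasts used edgeR's quasi-likelihood test on UMIs summed per library and class, with the library as a block, Benjamini-Hochberg adjustment over all genes and a threshold of 0.05. Sums in the fit were scaled by TMM normalization factors and CPM were not, so fold changes of the fit can differ from CPM ratios.

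**Figure D1:**
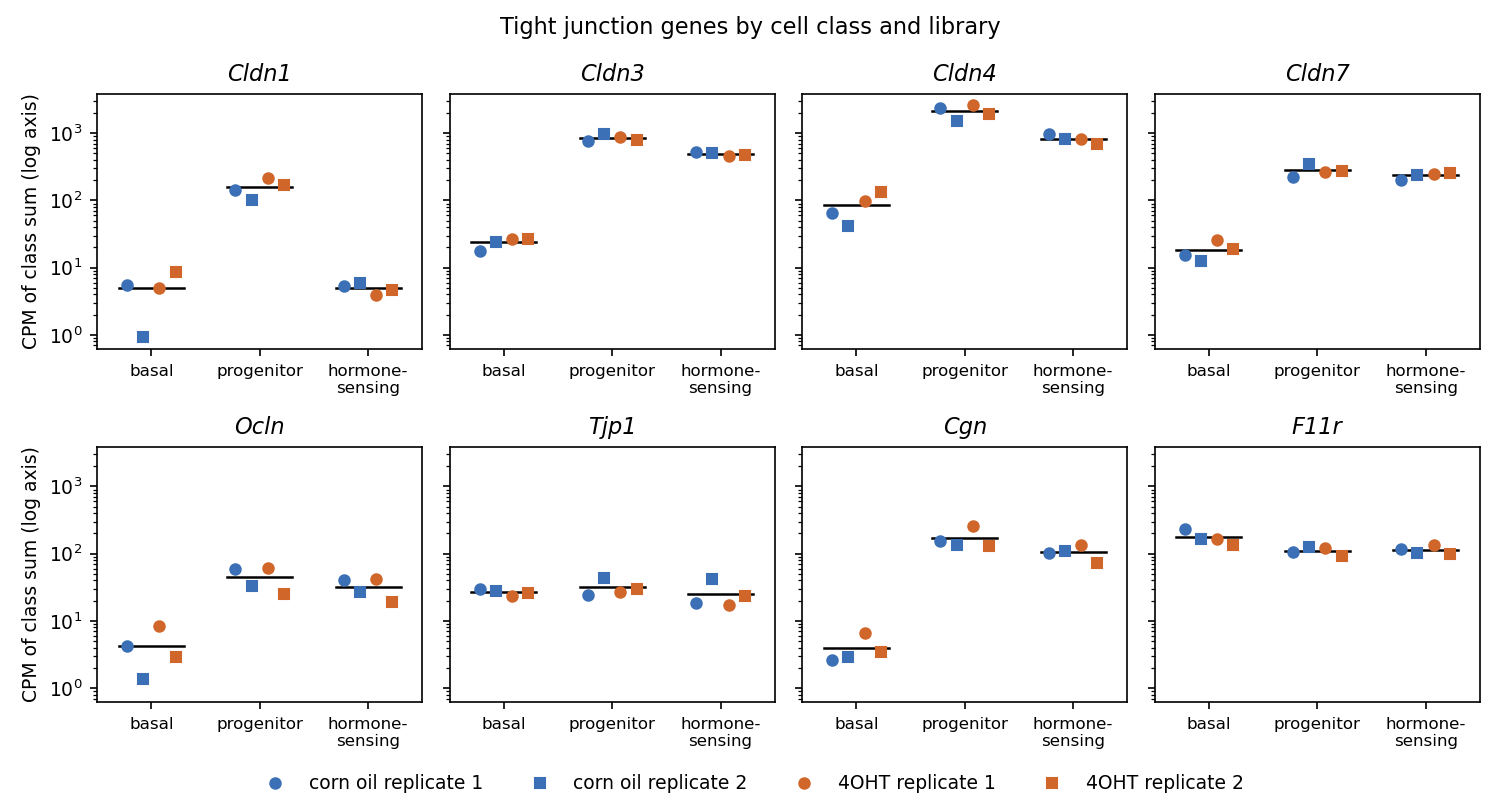
Level of each member (CPM of the class sum, log axis) in basal, luminal progenitor and hormone-sensing cells, with 1 point per library (circles for replicate 1, squares for replicate 2, blue for corn oil, orange for 4OHT) and a bar at the mean of the 4 libraries. Cldn3, Cldn4, Cldn7, Ocln and Cgn are high in both luminal classes, Cldn1 in progenitors (157.8 CPM on average, against 4.98 and 4.97), and Tjp1 and F11r lie within a narrow range.

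Cldn4, a barrier-forming claudin, had the highest CPM of the 8 in progenitors. Its progenitor levels were 2345 and 1526 CPM in the corn oil-labelled libraries and 2616 and 1936 CPM in the 4OHT-labelled ones. Basal cells held 65.7, 41.4, 98.5 and 136 CPM in the same order. No progenitor sum came near a basal sum, and the log2 fold change was 4.94 (standard error 0.28, adjusted p 3.83e-10, edgeR).

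Cldn3, its neighbour on chromosome 5 and likewise a barrier claudin, was more even between mice. Progenitors held 768, 957, 867 and 806 CPM and basal cells 17.7, 24.0, 26.9 and 26.4 CPM, given here and below as corn oil replicates 1 and 2 and then 4OHT replicates 1 and 2. The log2 fold change was 5.43 (standard error 0.15, adjusted p 8.60e-13, edgeR), a 43.2-fold difference. Cldn7, a claudin also found along lateral membranes, held 225, 354, 269 and 276 CPM in progenitors and 15.4, 12.4, 25.4 and 19.0 CPM in basal cells. It was 18.8-fold higher in progenitors (adjusted p 1.75e-11, edgeR).

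Cldn1, a claudin of barrier strands in many epithelia, was high in 1 of the 3 classes, the progenitors. They held 145, 102, 213 and 171 CPM. Basal cells held 5.44, 0.92, 5.05 and 8.5 CPM, from 6 to 56 UMIs per library, and hormone-sensing cells 5.4, 5.88, 3.86 and 4.72 CPM, from 6 to 12 UMIs. The basal and hormone-sensing ranges overlap and did not pass the test (log2 fold change 0.03, 95% interval -0.87 to 0.92, adjusted p 0.962, edgeR). Against progenitors, hormone-sensing cells were lower in 4 of 4 libraries (log2 fold change -5.28, adjusted p 4.16e-09, edgeR).

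Occludin was the least abundant of the luminal-high members, with 59.4, 32.5, 61.6 and 24.8 CPM in progenitors and 4.20, 1.38, 8.42 and 2.88 CPM in basal cells (log2 fold change 3.73, adjusted p 1.01e-09, edgeR). In each of the 3 classes, both libraries numbered 1 were above both libraries numbered 2. The libraries numbered 1 were also the deeper ones, with median UMIs per cell of 5328 and 4312 against 3663 and 3092.5, and the part of depth in this spread was not tested. Cingulin, the cytoplasmic scaffold, had the largest difference of the 8: 155, 133, 255 and 132 CPM in progenitors and 2.59, 2.91, 6.57 and 3.49 CPM in basal cells, a 53.0-fold change (log2 5.73, standard error 0.21, adjusted p 5.53e-12, edgeR).

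Tjp1 and F11r did not follow the luminal pattern. Tjp1, the ZO-1 scaffold that also serves other junctions, held 24.6, 43.9, 27.3 and 30.3 CPM in progenitors and 29.5, 27.7, 23.2 and 26.4 CPM in basal cells, ranges that overlap. Its log2 fold change of 0.46 (adjusted p 0.0341, edgeR) lost the call without corn oil replicate 2 (0.36, adjusted p 0.0713), without 4OHT replicate 1 (0.49, adjusted p 0.0601) and without 4OHT replicate 2 (0.51, adjusted p 0.0626). F11r held 234, 166, 164 and 136 CPM in basal cells and 105, 124, 122 and 91.0 CPM in progenitors. Basal cells were above progenitors in 4 of 4 libraries, by 1.34 to 2.23 times. The log2 fold change, progenitor minus basal, was -0.38 (a 1.31-fold difference, below each of these CPM ratios, standard error 0.13, adjusted p 0.0189, edgeR). It lost the call without corn oil replicate 1 (-0.20, adjusted p 0.241), without 4OHT replicate 2 (-0.36, adjusted p 0.0806) and where a 10-fold keratin margin set the classes (-0.10, adjusted p 0.623).

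Compared with basal cells, hormone-sensing cells shared with progenitors the higher levels of 5 members and the lower level of F11r. Of the 8 members 5 were higher and 1 lower, where 59.7% of genes passed (27.3% higher and 32.4% lower), and the members' median was 3.22, beside -0.08 for all genes. Cldn3 was at 526, 516, 462 and 478 CPM, a log2 fold change of 4.41 from basal cells (adjusted p 2.50e-12, edgeR). Cldn4 was at 980, 823, 818 and 697 CPM (log2 3.40, adjusted p 1.67e-08, edgeR). Cldn7, Ocln and Cgn were 13.4-fold, 8.17-fold and 28.2-fold higher than in basal cells. F11r was lower (log2 -0.59, adjusted p 0.00134, edgeR), which a 10-fold keratin margin took to -0.29 (adjusted p 0.142). Tjp1 did not pass (log2 -0.10, 95% interval -0.53 to 0.33).

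Between the luminal classes, 7 of the 8 members were lower in hormone-sensing cells than in progenitors, where 46.4% of genes passed (21.8% higher and 24.5% lower). The members' median was -0.81, beside -0.02 for all genes. After Cldn1, Cldn4 differed most, by 2.91-fold (log2 -1.54, adjusted p 7.54e-05, edgeR), and Cldn3 by 2.03-fold (log2 -1.02, adjusted p 7.44e-06, edgeR). Cgn was 1.88-fold lower (log2 -0.91, adjusted p 0.000261, edgeR). Progenitors were above hormone-sensing cells in 4 of 4 libraries for each of the 7. Cldn7 (log2 -0.48), Ocln (-0.70) and Tjp1 (-0.56) were nearer to the threshold, at adjusted p of 0.0153, 0.0106 and 0.0297 (edgeR). Leaving out corn oil replicate 1 ended all 3 of these calls, at adjusted p of 0.0586, 0.0538 and 0.0613. The call of Cldn7 also ended without 4OHT replicate 2 (0.0598), and that of Tjp1 without 4OHT replicate 1 (0.128) and without 4OHT replicate 2 (0.125). F11r did not pass (log2 -0.20, 95% interval -0.49 to 0.08), and its CPM were higher in hormone-sensing cells in 3 of 4 libraries. The hormone-sensing class of 4OHT replicate 1 carried fibroblast markers summing to 1346 CPM, against 53.5 to 243 CPM in the other libraries, and the part of this in its values was not tested.

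The order of the classes was thus progenitor, hormone-sensing, basal for Cldn3, Cldn4, Cldn7, Ocln and Cgn in 4 of 4 libraries. Cldn1 had progenitors first in 4 of 4, with no difference shown between the other classes. F11r had basal cells first in 4 of 4, but with a 10-fold keratin margin not in the 4OHT-labelled ones. With that margin, basal cells of 4OHT replicates 1 and 2 held 115 and 98.7 CPM, against 131 and 101 CPM in the higher luminal class. Tjp1 had no order that held in all libraries between basal cells and either luminal class.

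For shares of cells, a random draw reduced each cell to 2000 UMIs, and cells below that depth were left out (between 34 and 379 basal cells and between 34 and 140 progenitors per library). In progenitors Cldn4 was detected in 73.7% of cells on average (68.6% to 78.8% over the 4 libraries) and Cldn3 in 68.6% (63.7% to 73.9%). Cldn7 was found in 38.7%, Cgn in 25.8%, Cldn1 in 21.6%, Ocln in 8.24% and Tjp1 in 5.72% of progenitors. F11r was the member most often detected in basal cells, at 33.5%, 25.7%, 23.9% and 21.4%, against 20.1%, 20.5%, 22.3% and 14.5% in progenitors. Without thinning, the mean shares in progenitors were 84.1% for Cldn4, 84.9% for Cldn3 and 35.5% for Cldn1, and 40.3% of basal cells had an F11r UMI. Exact Clopper-Pearson 95% intervals are drawn in the plot of these shares and cover counting error only.

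**Figure D2:**
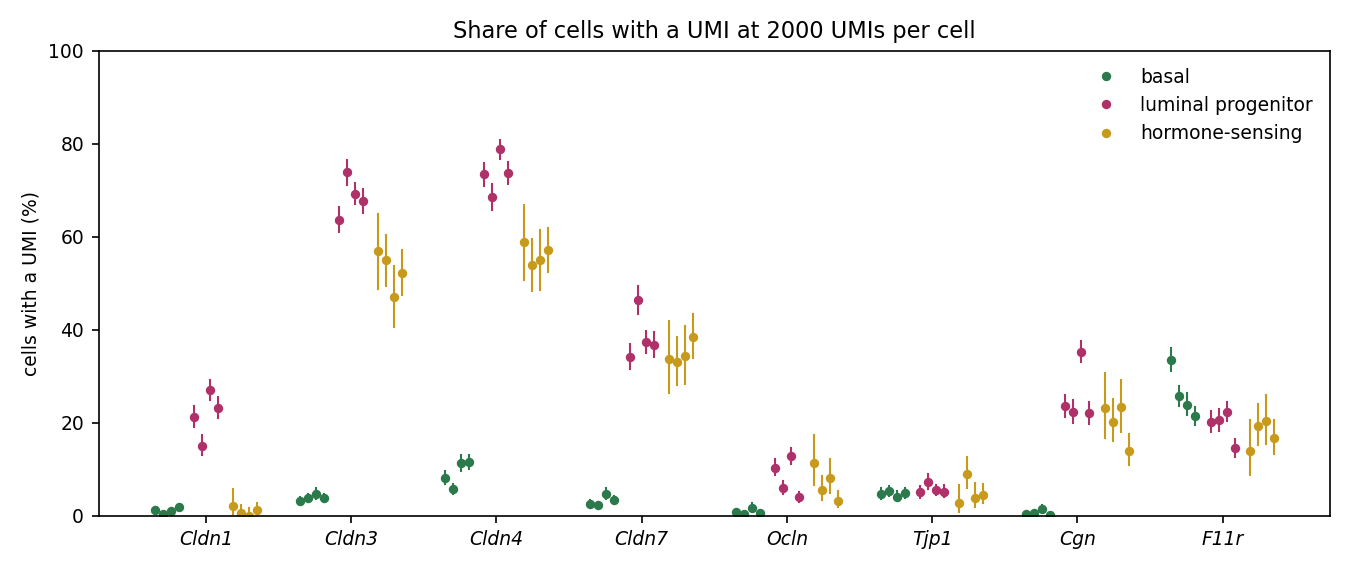
Share of cells (%) with at least 1 UMI of each member after thinning to 2000 UMIs per cell, by class (green basal, magenta luminal progenitor, gold hormone-sensing), with points from left to right for corn oil replicates 1 and 2 and 4OHT replicates 1 and 2 and bars for exact 95% binomial intervals. Cldn3 and Cldn4 lie between 63.7% and 78.8% in progenitors, and the basal shares of F11r (21.4% to 33.5%) lie mostly above its luminal ones.

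Most progenitors had a UMI of at least 1 of the luminal claudins Cldn3, Cldn4 and Cldn7 at this depth. The share with none was 8.17%, 9.02%, 5.28% and 7.24%, and the share with all 3 was 18.2%, 28.0%, 22.0% and 20.7%. Among hormone-sensing cells, 11.9%, 19.0%, 22.0% and 16.7% had none. Among basal cells 87.3%, 89.4%, 81.1% and 83.2% had none, which was lower in both 4OHT-labelled libraries.

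Cldn1 was found in a minority of progenitors, and the progenitors with a Cldn1 UMI (266, 165, 440 and 301 thinned cells) had more RNA of other members. Cldn4 stood at 4342, 2642, 4089 and 3281 CPM in them and at 2113, 1370, 2347 and 1720 CPM in progenitors without one, a ratio of 1.74 to 2.06. Cldn3 was 1.39 to 1.75 times and Cgn 1.43 to 1.59 times as high. The ratios of Cldn7 ran from 1.18 to 1.41, and those of F11r (0.94 to 1.33), Ocln (1.00 to 2.54) and Tjp1 (0.51 to 1.19) lay on both sides of 1 or reached it. F3, which encodes tissue factor, was 2.10 to 2.38 times as high, and the keratin gene Krt7 1.60 to 2.34 times. F3 and Krt7 were picked to stand beside Cldn1 with earlier results of these data known, so their ratios are not independent of that choice. Of the progenitor markers, Aldh1a3 had ratios of 1.00 to 1.55, Elf5 of 0.56 to 1.27 and Kit of 0.44 to 1.16, both of the last below 1 in 3 of 4 libraries. These ratios compare cells of the same library and are given without a test, since cells are not replicates. Among pairs, Cldn1 and Cgn were found together 1.25 to 1.37 times as often as the product of their shares, Cldn1 and Cldn4 1.18 to 1.24 times, and Cldn3 and Cldn7 1.03 to 1.06 times.

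The low levels in basal cells were set beside those of 12 genes known from luminal cells. For these genes, among them Csn3, Trf and Elf5, the basal level as a percentage of the higher luminal class had a median of 1.45% to 2.22% per library, and the highest gene, Lcn2, reached 20.7% to 55%. Of the 12, Csn3, Wfdc18 and Ltf also split the luminal classes, so that rule partly set their luminal levels. Cldn3 (2.30% to 3.28%), Cgn (1.67% to 2.65%), Cldn1 (0.90% to 4.98%), Cldn4 (2.72% to 7.0%), Cldn7 (3.5% to 9.46%) and Ocln (4.23% to 13.7%) all lay below Lcn2, and Cldn3, Cldn4, Cldn7 and Ocln were above the median in 4 of 4 libraries. Lcn2 (965 to 2310 CPM) and Plet1 (147 to 301 CPM) were themselves abundant in basal cells. Without both, a choice made after their values were seen, the highest of the other 10 genes stood at 2.74% to 5.43%. Cldn7 and Ocln were above it in 3 of 4 libraries, Cldn4 and Cldn1 in 2, Cldn3 in 1 and Cgn in 0. The libraries in which Cldn4 was above it were both 4OHT-labelled ones, where the highest gene was Csn3 (replicate 1) and Wfdc18 (replicate 2). With a 10-fold keratin margin, Cldn4 was at 2.65% in 4OHT replicate 1, below Trf at 3.86%, and at 4.13% in 4OHT replicate 2. It was above the median of the 12 genes in 3 of 4 libraries with this margin. Tjp1 (63.0% to 119.9%) and F11r (123% to 197%) were above every one of the 12 genes in 4 of 4 libraries, also with a 10-fold keratin margin.

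Non-epithelial cells gave a further comparison. Over the 3 libraries with more than 6 such cells, Cldn3 was at 31.2, 11.1 and 6.75 CPM in endothelial cells, fibroblasts and leukocytes together, beside 24.0, 26.9 and 26.4 CPM in basal cells. Cldn4 was at 21.4 (95% counting interval 10.7 to 38.3), 41.6 (23.3 to 68.6) and 27 CPM (11.7 to 53.2). The basal Cldn4 levels of 98.5 (90.7 to 106.9) and 136 CPM (126.8 to 144.7) in the 4OHT-labelled libraries were above these intervals. The 41.4 CPM (36.7 to 46.7) of corn oil replicate 2 overlapped the interval of that library. In corn oil replicate 1 basal Cldn4 was at 65.7 CPM (60.3 to 71.6), above the intervals of both libraries numbered 2. Its own 6 non-epithelial cells gave an interval of 44.5 to 418.6 CPM, too wide to compare. In the 62 thinned fibroblasts of corn oil replicate 2, Cldn4 and Cldn3 were each found in 6.45% of cells (interval 1.79% to 15.7%) and the basal shares of Cldn3 (3.08% to 4.66%) and Cldn4 (5.66% to 11.5%) lie inside that interval. Cldn7 was found in 3.23% of them (0.39% to 11.2%), and its basal shares (2.23% to 4.58%) also lie inside. Cldn1, Ocln and Cgn were found in 0 of the 62 fibroblasts, which allows a share of up to 4.84%, and their basal shares were at most 1.83%, 1.76% and 1.53%. A difference of these shares from fibroblasts was thus not detectable with 62 cells, and the part of free RNA in the basal values was not tested. Before thinning, the median depth of all 79 fibroblasts of that library was 3224 UMIs. F11r, by contrast, was found in 42.3% of the 52 endothelial cells of 4OHT replicate 2 (interval 28.7% to 56.8%) and in 1.61% of the 62 fibroblasts (0.04% to 8.66%). Tjp1 was found in 11.5% and 3.23% of the same cells. Of these 52 endothelial cells, 1.92% had a Cldn4 UMI (interval 0.05% to 10.3%). The basal Cldn4 share of that library, 11.5%, was above this interval, though its own interval overlapped it. Its basal shares of Cldn3 (3.72%) and Cldn7 (3.28%) lay inside the endothelial intervals (up to 6.85%). In corn oil replicate 2 and 4OHT replicate 1, the endothelial Cldn4 intervals (0.63% to 17.3% and 0.08% to 17.2%) included the basal shares.

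The members were also followed along the luminal share of the keratin UMIs, across the class margins. Cells with at least 20 keratin and actin UMIs were binned by the luminal percentage of those UMIs. Cldn3, Cldn4, Cldn7, Ocln and Cgn in the bin from 25% to 75% lay between the bins at either end in 4 of 4 libraries. Cldn4 averaged 55.4 CPM under 5%, 324 CPM from 25% to 75% and 2231 CPM above 95%. F11r behaved differently, with its middle bin above both ends in 4 of 4 libraries: 264, 186, 236 and 177 CPM, against 193, 129, 97.5 and 78.9 CPM under 5% and 103, 115, 118 and 91.0 CPM above 95%. Tfap2c had the same shape, with means of 220, 552 and 34.4 CPM in the 3 bins. Cldn1 stayed at 5.72 to 11.6 CPM in the middle bin and reached 106 to 217 CPM above 95%. The bins were not recomputed without called doublets.

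**Figure D3:**
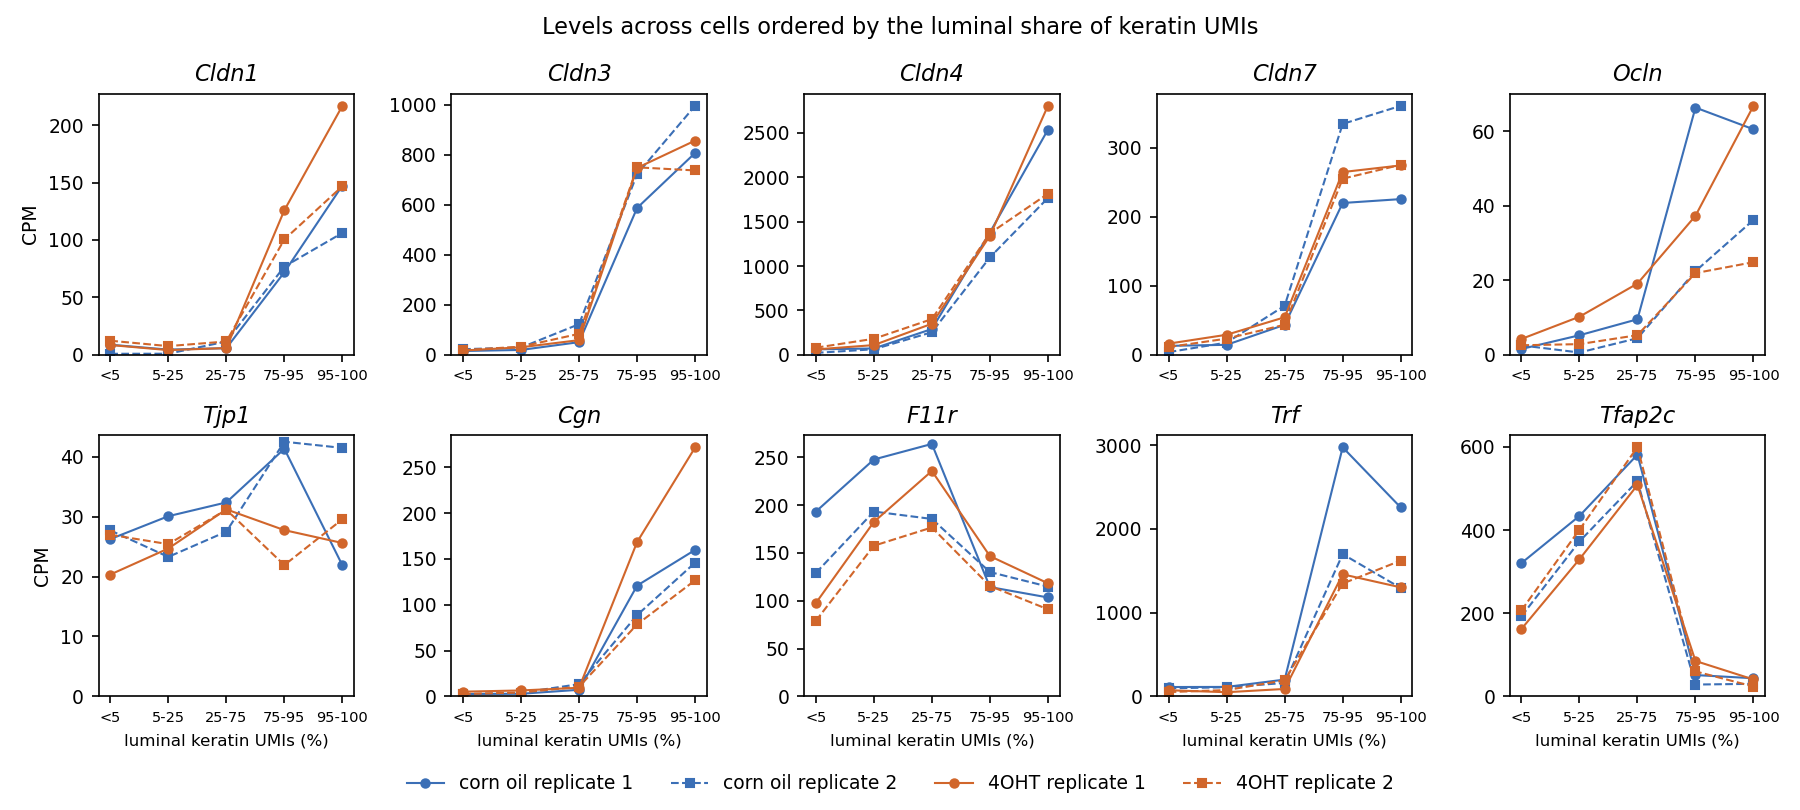
Level (CPM, linear axes starting at 0) of the 8 members, of the luminal gene Trf and of Tfap2c in cells binned by the luminal percentage of their keratin and actin UMIs, with 1 line per library (blue corn oil, orange 4OHT, solid lines for replicate 1 and dashed for replicate 2). F11r and Tfap2c are higher in the bin from 25% to 75% than at either end in 4 of 4 libraries, whereas Cldn3, Cldn4, Cldn7, Ocln and Cgn lie between the ends there.

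Members that shared a class pattern also tracked each other over the 12 class sums, which come from 4 mice and share their libraries. On log2(CPM + 1), Pearson's r was 0.99 for Cldn3 with Cldn7 and for Cldn3 with Cgn, and 0.97 for Cldn3 with Cldn4. Cldn1 had an r of 0.62 with Cldn3, and F11r one of -0.82. The genes nearest to each member on this scale were Klf5, Muc15 and Myo6 for Cldn1 (r of 0.97 each), Rab11fip1, Clu and Ehd4 for Cldn3 (0.98 to 0.99), and Basp1, Rhov and Lgals3 for Cldn4 (0.98 each). For Cldn7 they were Appl2, Clu and Cystm1 (0.98 to 0.99), for Ocln they included Osbpl3 and Wnt7b (0.97 and 0.96), and for Cgn Clu and Rab11fip1 (0.98 each). Bbc3 was nearest to Tjp1 (0.92, then Ppp4c and Ube2j2 at 0.81 and 0.80), and Csnk2a1, Tcp1 and Kcnq1ot1 were nearest to F11r (0.95 to 0.97). The points fall into 3 classes, and the coefficients include the differences between these.

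Some other claudins had the opposite order in the luminal classes. Enough counts were present for 7 of 20 further claudin-family genes. Of these, 4 were higher and 1 lower in progenitors than in basal cells, where 26.6% and 29.5% of all genes were. In hormone-sensing against basal cells 4 were higher and 3 lower, beside 27.3% and 32.4% of all genes. Between the luminal classes, 3 of the 7 were higher in hormone-sensing cells (Cldn6, Cldn8 and Cldn10) and 3 lower (Cldn12, Cldn34c1 and Cldnd1). Over all genes 21.8% were higher and 24.5% lower there. The median log2 fold change of the 7 genes was -0.76. Cldn8 (1.82), Cldn12 (-1.07) and Cldn34c1 (-2.82) were named after their values were seen. Cldn10, a claudin known for ion-selective pores, was at 208.5 CPM on average in hormone-sensing cells, 13.4 CPM in progenitors and 3.07 CPM in basal cells (log2 3.82 between the luminal classes, adjusted p 2.74e-09, edgeR). Cldn6 had the same order, at 32.2, 2.83 and 0.16 CPM (log2 3.38, adjusted p 1.00e-06, edgeR). Both ran opposite to Cldn1 between the luminal classes. Cldnd1, a claudin domain gene, was highest in basal cells, at 150.9 CPM against 56.8 and 34.0 CPM.

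Among 27 other tight junction and polarity genes tested, 14 were higher and 8 lower in progenitors than in basal cells. Over all genes 26.6% were higher and 29.5% lower, so the lower calls were near that share. The median log2 fold change of the 27 genes was 0.48. Marveld2 (tricellulin) and Marveld3, relatives of occludin, were higher by 4.73 and 3.44 log2 units (edgeR adjusted p 2.77e-11 and 3.72e-10). The polarity gene Pard6b was higher by 3.01, and its paralog Pard6g was lower, at 3.30 CPM in progenitors against 52.4 CPM in basal cells (log2 -3.70, adjusted p 3.86e-09, edgeR). Amotl1, an angiomotin relative, was likewise lower in progenitors (log2 -1.85).

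Calls in the adherens junction list were near the shares over all genes, 26.6% higher and 29.5% lower. The desmosome list was too short to set against these shares. Of 13 adherens junction genes 4 were higher and 4 lower in progenitors. P-cadherin (Cdh3) was lower by 4.95 log2 units and Nectin4 higher by 3.92, while Nectin1 was lower by 1.60. Of 9 desmosome genes 2 were higher, among them Pkp2 by 3.98, and 4 were lower, among them Perp at 345.0 CPM in basal cells and 70.1 CPM in progenitors. Of 9 claudin partners and membrane proteases, 8 were higher in progenitors and 1 lower. The proteases Prss8 and St14 were higher by 2.43 and 2.30 log2 units. Of 16 transcription factors and splicing factors of epithelial junction genes, 8 were higher, among them Elf5 (6.73), Ehf (6.0) and Klf5 (2.75), and 4 lower, among them Snai2 (-4.97), a repressor of epithelial genes that binds E-boxes, and Tfap2c (-2.63).

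**Figure D4:**
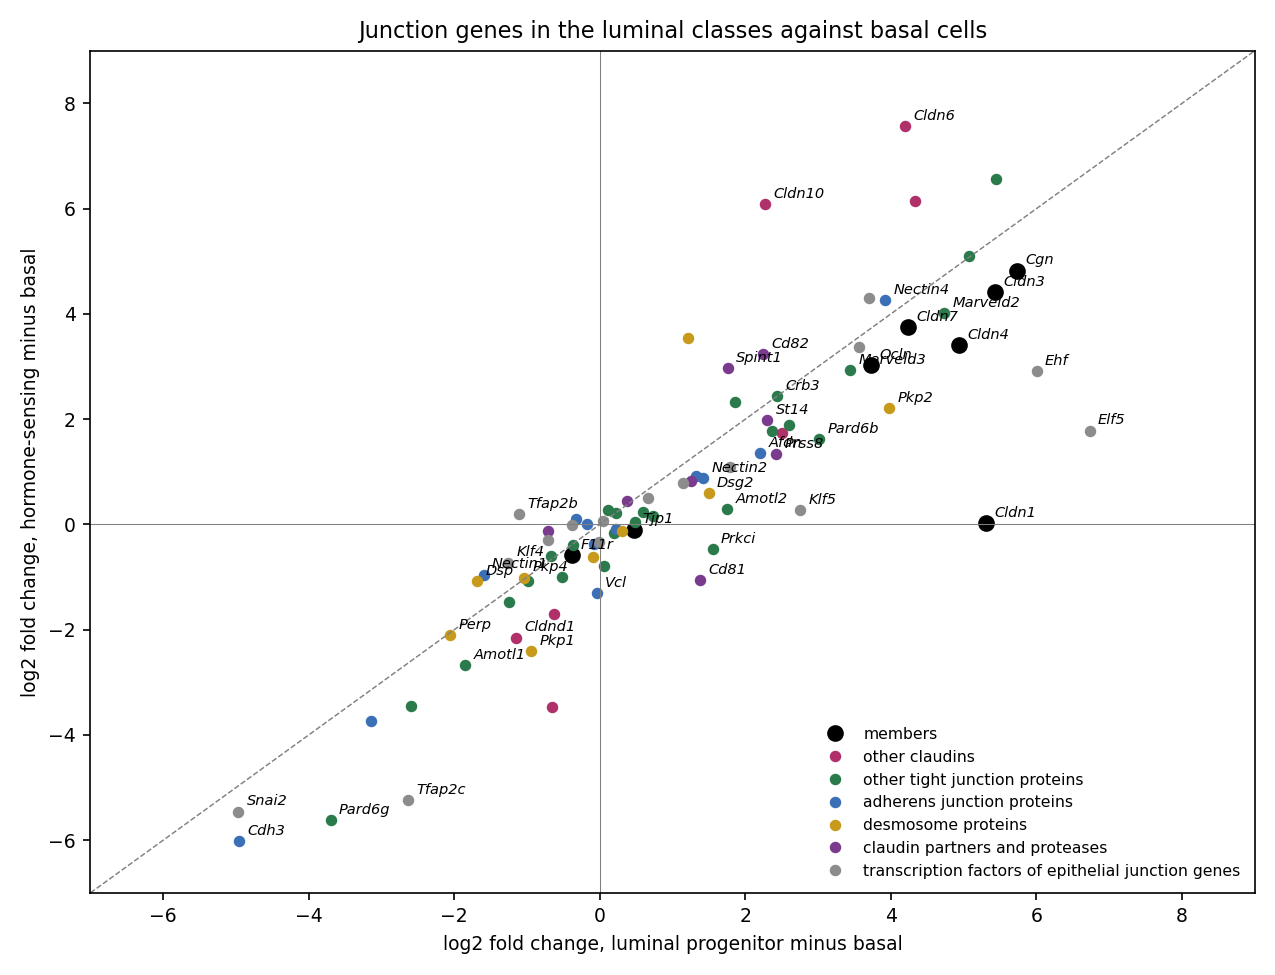
Log2 fold change of junction genes in luminal progenitors against basal cells (horizontal axis) and in hormone-sensing against basal cells (vertical axis), coloured by gene list and with some genes not shown, with the 8 members in black and equality as a dashed line. Cldn1 lies at 5.31 and 0.03, F11r and Tjp1 lie near the origin, and Cldn6 and Cldn10 lie above the dashed line.

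The treatment comparison asked whether the members differed between 4OHT-labelled and corn oil-labelled libraries within a class. None of the 8 members passed in basal cells or in progenitors, and none of the 7 with enough counts passed in hormone-sensing cells. The same edgeR test called 0% of 10775 genes in basal cells, 0% of 10107 in progenitors and 0.0132% of 7576 in hormone-sensing cells, the last being 1 gene, Ctsr. At an unadjusted p under 0.05 it found 464 genes (4.31%), 164 (1.62%) and 239 (3.15%), among them the members Cldn4 and Cldn7 in basal cells and Cldn1 in progenitors. DESeq2 called 38, 1 and 7 genes and no member.

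In basal cells Cldn4 was higher in both 4OHT-labelled libraries, at 98.5 and 136 CPM against 65.7 and 41.4 CPM. The log2 fold change was 1.2 (95% interval 0.42 to 1.98), and edgeR gave an unadjusted p of 0.00845, or 0.999 as an adjusted p. Without 4OHT replicate 1, which leaves 1 mouse in the 4OHT group, the log2 fold change was 1.5. Over the alternatives run it ran from 0.85 to 1.51. The thinned share of basal cells with a Cldn4 UMI was 8.14% and 5.66% in corn oil-labelled and 11.3% and 11.5% in 4OHT-labelled libraries. The exact two-sided permutation p was 0.333, the smallest that 2 against 2 can give.

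The other luminal claudins and cingulin were also higher in both 4OHT-labelled basal sums, at smaller sizes. Cldn7 was at 15.4 and 12.4 against 25.4 and 19.0 CPM (log2 0.71, unadjusted p 0.0332), Cldn3 had a log2 of 0.40 and Cgn of 0.89. In all, 6 of 8 members had groups that did not overlap in basal cells, 4 higher and 2 lower (Tjp1, log2 -0.15, and F11r, -0.37), where 30.7% of all genes had such groups (13% higher and 17.7% lower). The members' median was 0.80, beside -0.02 for all genes. F11r was at 234 and 166 CPM in corn oil-labelled and at 164 and 136 CPM in 4OHT-labelled libraries, so that the nearest values, 166 and 164 CPM, were almost equal. None of these differences passed the adjusted threshold in this fit, which had no term for the replicate number. A fit with that term is given with the alternatives below.

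The share of cells left unclassed by the 3-fold margin, with at least 5 keratin or actin UMIs of each lineage, moved in the same direction. These made up 9.75% and 6.71% of cells in corn oil-labelled and 17.9% and 16.1% in 4OHT-labelled libraries. Placing them in the class of their more abundant keratin gave a basal Cldn4 log2 of 1.27, and a 10-fold margin gave 1.03. The 8 luminal progenitor markers in basal cells summed to 1773 and 2900 CPM in corn oil-labelled and 1311 and 2283 CPM in 4OHT-labelled libraries, with Kit at 0 in 3 of the 4. Without Lcn2 and Plet1, which basal cells carried at high levels, the other 6 summed to 266 and 288 CPM against 198 and 249.5 CPM. The largest parts of that sum were Mfge8 (137 and 163 against 126 and 170 CPM) and Trf (115 and 106 against 57.1 and 62.5 CPM). Trf and Aldh1a3 (5.19 and 4.13 against 2.02 and 4.10 CPM) were lower in both 4OHT-labelled libraries. Mfge8, Cd14 and Elf5 overlapped between treatments. The part of luminal RNA or of cells with mixed keratins in the basal values was not tested.

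In progenitors the groups of Cldn1 did not overlap, at 145 and 102 CPM against 213 and 171 CPM, where 24.9% of all genes tested had such groups (7.29% higher). Its log2 fold change was 0.72 (95% interval 0.06 to 1.38), and edgeR gave an unadjusted p of 0.0356, or 1.00 as an adjusted p. It fell to 0.47 without corn oil replicate 2 and rose to 1.05 without corn oil replicate 1. The other 7 members overlapped between treatments there, with log2 fold changes from -0.15 (Tjp1) to 0.50 (Cgn). In hormone-sensing cells Cldn3 and Cldn4 were lower and Cldn7 higher with no overlap, by -0.19, -0.28 and 0.13 log2 units, where 30.5% of genes had groups that did not overlap (17% higher and 13.5% lower). Cldn1 had too few counts there to be tested.

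**Figure D5:**
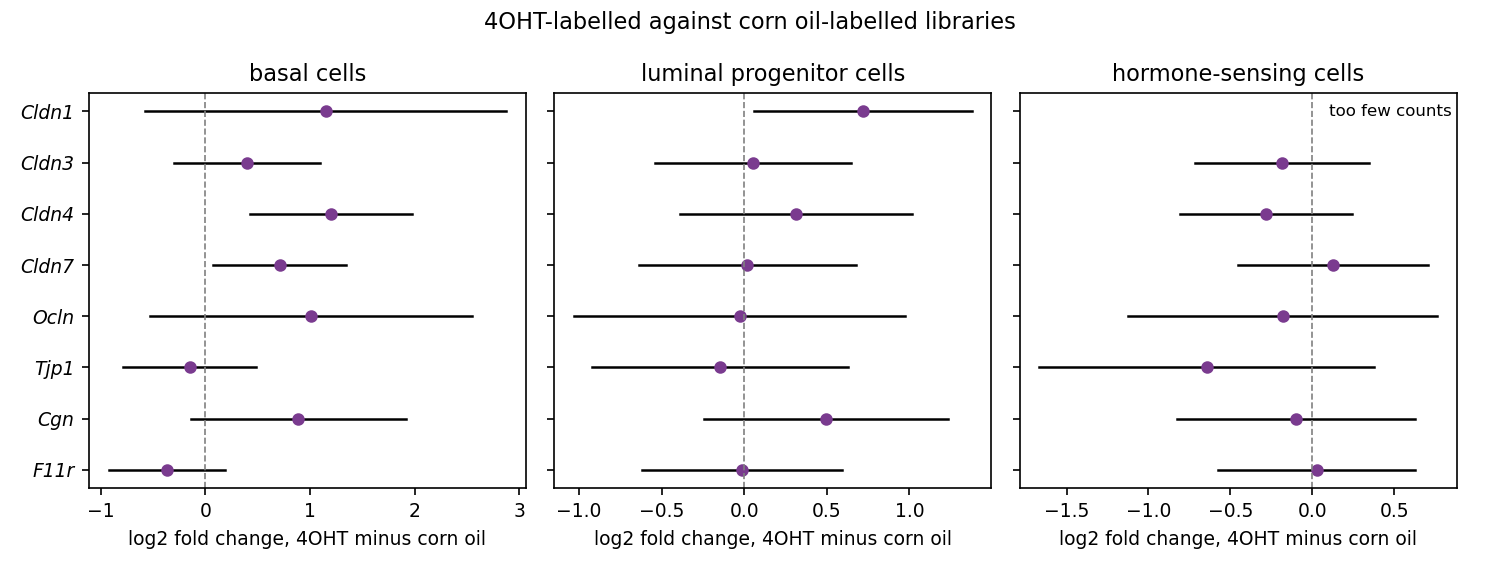
Log2 fold change of each member, 4OHT minus corn oil, in the 3 classes (2 libraries per treatment), as points with 95% confidence intervals from edgeR; the horizontal scales differ between panels. The intervals of Cldn4 and Cldn7 in basal cells and of Cldn1 in progenitors exclude 0 without adjustment, and none passes after adjustment over all genes.

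Whether the treatment difference itself differed between classes was tested as an interaction, which called 0% of 11985 genes for basal against progenitor cells, with 491 (4.1%) at an unadjusted p under 0.05. The Cldn4 difference was larger in basal cells than in progenitors by 0.85 log2 units (95% interval 0.21 to 1.49, unadjusted p 0.0124), that of Ocln by 1.02 (unadjusted p 0.0183) and that of Cldn7 by 0.63 (unadjusted p 0.0440), each with an adjusted p of 1.00 (edgeR). Between hormone-sensing cells and progenitors the interaction called 0.00834% of genes, again Ctsr alone, with 3.8% at an unadjusted p under 0.05. The Cldn4 difference was lower in hormone-sensing cells by -0.66 log2 units (unadjusted p 0.0421) and that of Cgn by -0.60 (unadjusted p 0.0401), both with an adjusted p of 1.00 (edgeR).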

How the data were processed

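The authors deposited raw UMI counts per gene and cell for 4 libraries, 1 mouse each, made with Cell Ranger 3.0.1 against mm10, per the labels' design text and the submitters' processing notes. Whether strand or introns were counted, and how cells were called, is not given in the sources used here. Reads of overlapping genes may have been lost or split by the authors' counting. The members and the gene lists were chosen with earlier results of these data known.

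Of 18223 barcodes, 391 with fewer than 1000 UMIs were left out. Doublets were kept in the main analysis and left out in an alternative. Counts were summed per library and class and tested with edgeR 4.0.16 (R 4.3.3; TMM factors, filterByExpr, quasi-likelihood F-test, Benjamini-Hochberg over all genes tested, threshold 0.05). CPM was computed here from the deposited counts. Class contrasts and interactions used all 12 sums with library as a term, and the 13 class rule genes were left out of counts of calls. Leave-one-out fits of treatment left 1 library in a group, which was assumed to vary like the other group. The labels name 1 mouse per library, so p-values of the treatment comparisons within a class measure the spread between mice. Same-numbered libraries had deviations that correlated at 0.73 in basal cells, 0.47 in progenitors and 0.24 in hormone-sensing cells. These shared deviations are part of that spread. P-values of class contrasts and interactions, with library as a term, measure how class differences vary between libraries.

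On simulated counts with 200 genes changed by 2 log2 units, the treatment test recovered 82.5% of 200 in the basal comparison (10564 genes), 68.5% in progenitors (9838 genes) and 68% in hormone-sensing cells (7264 genes). With changes of 1 log2 unit it recovered 0%, 1.5% and 8% (10566, 9846 and 7291 genes).

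All members were named. From each other list, up to 3 genes per direction and class contrast with an adjusted p under 0.05, at least 1 log2 unit and at least 20 CPM were eligible, with Tfap2c, F3 and Krt7, and the 3 genes of highest correlation with each member. Some genes that met this rule are not reported here. Markers of pericytes, endothelial cells, fibroblasts and leukocytes were also summed: over the 3 classes they reached at most 12.9, 72.1, 1346 and 24.5 CPM. Gene positions are from GENCODE M21, and windows before gene starts are from RefSeq, in whose table all 8 members were found. Exact intervals and limits cover counting error only. Python 3.11.15, scanpy 1.11.5 (Scrublet) and DESeq2 1.42.0 were used for the rest.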

Additional observations from a re-analysis of the deposited data

Results flagged for a closer look

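Cells with at least 5 keratin or actin UMIs of each lineage in which neither exceeded 3 times the other, and which the class comparisons as reported did not use, made up 17.9% of cells in 4OHT replicate 1 and 16.1% in 4OHT replicate 2, both above corn oil replicates 1 and 2 (9.75% and 6.71%). Cldn4 in these cells was at 329 CPM (4OHT replicate 1) and at 395 CPM (4OHT replicate 2), with 271 and 244 CPM under corn oil. Both were singled out because the values of these unclassed cells exceeded those of the control libraries, and neither was tested.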

How the results depend on the processing

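The large class differences of Cldn1, Cldn3, Cldn4, Ocln and Cgn kept their direction and their side of the threshold in progenitors against basal cells under every alternative run, and so did Cldn7. The count of genes called for treatment moved with the test: without the filter on low counts it was 93 in basal cells, 39 in progenitors and 59 in hormone-sensing cells, and with DESeq2 38, 1 and 7. A 10-fold keratin margin called 1 gene in progenitors. The keratin rule without the 3-fold margin, chosen after seeing the data, called 0 in hormone-sensing cells. Leaving out 1 library at a time gave 17 to 127 calls in basal cells, 31 to 64 in progenitors and 4 to 80 in hormone-sensing cells, and 2 to 12 and 0 to 8 for the 2 interactions, with 1 library left in a group. The cause was not tested.

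The replicate numbers are shared between treatments, but the labels do not say that they pair mice. Same-numbered libraries had deviations that correlated at 0.73 in basal cells, 0.47 in progenitors and 0.24 in hormone-sensing cells. With the replicate number as a block, 167, 9 and 3 genes were called, and basal Cldn4 passed (log2 1.18, adjusted p 0.0434, edgeR); no other member did.

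Some member values changed sign, all with adjusted p above 0.05. For treatment in progenitors these were Cldn3 (-0.0011 with a 10-fold margin, -0.064 without the margin), Cldn7 (-0.090) and F11r (0.041), the last pair without the margin. Against basal cells, hormone-sensing Cldn1 turned to -0.055 without the filter, -0.21 with doublets and poor cells left out and -0.18 with a 10-fold margin, and the F11r interaction in hormone-sensing cells turned to -0.041 without the margin. Over single libraries left out, sign changes gave these ranges: basal Tjp1 -0.34 to 0.034; progenitor Cldn3 -0.050 to 0.19, Cldn7 -0.23 to 0.35, Ocln -0.74 to 0.53, Tjp1 -0.46 to 0.29 and F11r -0.17 to 0.13; hormone-sensing Cldn7 -0.062 to 0.36, Ocln -0.83 to 0.29, Tjp1 -1.16 to 0.21, Cgn -0.57 to 0.25 and F11r -0.17 to 0.19. For hormone-sensing against basal cells they were Cldn1 -0.50 to 0.60 and Tjp1 -0.43 to 0.11, and for the interactions Cldn1 -0.12 to 1.78, Tjp1 -0.46 to 0.28, Ocln -0.47 to 0.12 and F11r -0.025 to 0.10. Without the margin, Tjp1 in progenitors against basal cells (0.41, adjusted p 0.0540) and Cldn7 between the luminal classes (-0.43, adjusted p 0.0533) did not pass. With 6 to 56 UMIs per basal sum, Cldn1 there is limited by depth.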
